A study of Mus musculus with 2 samples.

Results

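The unfolded protein response (UPR) regulators described here are 10 genes, Xbp1, Atf4, Ddit3, Atf6, Ern1, Eif2ak3, Herpud1, Sel1l, Ppp1r15a and Trib3, out of 20330 Ensembl genes in the deposited expression table. They were taken by name and not by their values, and all 10 were found by symbol. The cells were adipose tissue macrophages (ATM) sorted on F4/80 and CD11b from visceral fat of C57BL/6 mice after 12 weeks on high-fat diet (HFD). The WT mice were hMRP8cre-;Hif-1αfl/fl;ApoE-/- and the KO mice were hMRP8cre+;Hif-1αfl/fl;ApoE-/-, so the ApoE null allele and floxed Hif-1α (flanked by loxP sites) were in both. In KO mice the human MRP8 promoter drives Cre recombinase in myeloid cells, a class wider than ATM, and the number of animals behind a library is not given in the sources used here. The study's methods start the diet in young mice soon after weaning.

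The endoplasmic reticulum (ER) folds secreted and membrane proteins, and its membrane holds sensors that respond when unfolded protein builds up. IRE1, encoded by Ern1, cuts the Xbp1 messenger RNA so that it codes for an active transcription factor. PERK, encoded by Eif2ak3, phosphorylates the initiation factor eIF2, which slows translation in general and favours that of Atf4. ATF6 is cut in the Golgi and enters the nucleus. The response is known to be engaged in obese fat, and macrophages, which secrete and take up much protein and lipid, carry all of its branches.

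Gene-level RNA values do not show this activation directly. The clearest case is Xbp1, because its inactive and active messages differ only by a short stretch that IRE1 removes. The stretch is shown because a value for the whole gene counts both forms. It is given in GRCm38 at chr11:5524279-5524304 on the plus strand, inside exon 4 of the longest GENCODE transcript of Xbp1, with the 26 removed bases in capitals.
Xbp1 site: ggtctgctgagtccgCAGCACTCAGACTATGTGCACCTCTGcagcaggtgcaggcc
In a message of 2129 nt the loss of 26 bases would hardly change the gene's level, and the share of the cut form was not analysed here.

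The question was whether ATM of KO mice, in which myeloid Hif-1α is targeted, differed from WT ATM in the messages of these regulators. There was 1 WT library and 1 KO library, so differences are given as values, with no test and no error between replicates. Genotype, animal, sort and library preparation cannot be told apart. FPKM, fragments per kilobase of transcript scaled to the mapped fragments of the library, summed to 585823 in WT and 568329 in KO. Low values came in steps that put the depth near 5857672 fragments in WT and 7466183 in KO. The targeted gene Hif1a was at 30.4 FPKM in WT against 20.97 in KO, a value for the whole gene that does not isolate the deleted part. Apoe was at 94.3 FPKM in WT against 117 in KO, although both genotypes carry the ApoE null allele, and whether that allele is transcribed was not analysed here. Changes are differences of log2(FPKM + 1), KO minus WT, over the 10297 genes that reached 1 FPKM in WT, in KO or in both.

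No UPR regulator differed by 3-fold or more between the genotypes. Of the 10 genes, 9 passed the filter on low values and 1, Trib3, was listed at 0 in both libraries. Among the 9, 6 were higher and 3 were lower in KO, with changes from -0.86 for Sel1l to 0.70 for Atf4 and a median of 0.29. Over all genes compared the median change was 0.03 and 51.3% were higher in KO. The count of 0 of 9 past 3-fold stood beside 27.3% of all genes, 13.6% higher and 13.7% lower in KO. At 2-fold the count was also 0 of 9, against 45.6% of all genes. The median size of the change, regardless of direction, was 0.39 for the 9 regulators and 0.87 over all genes.

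These shares depended strongly on how highly a gene was expressed, so each regulator was set beside genes of like level. The share past 3-fold was 64.3% for genes at a mean of 1 to 2 FPKM, 32.4% at 5 to 10, 20.6% at 10 to 20, 11.7% at 20 to 50, 4.95% at 50 to 100 and 2.14% at 100 or more. The regulators lay mostly at levels where few genes passed, with Atf4, Ppp1r15a and Herpud1 in the highest range and Xbp1 and Ddit3 in the next. The count of 0 in 9 thus stood beside shares of 2.14% to 32.4% at the regulators' own levels, lower for most of them than the share over all genes.

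**Figure D1:**
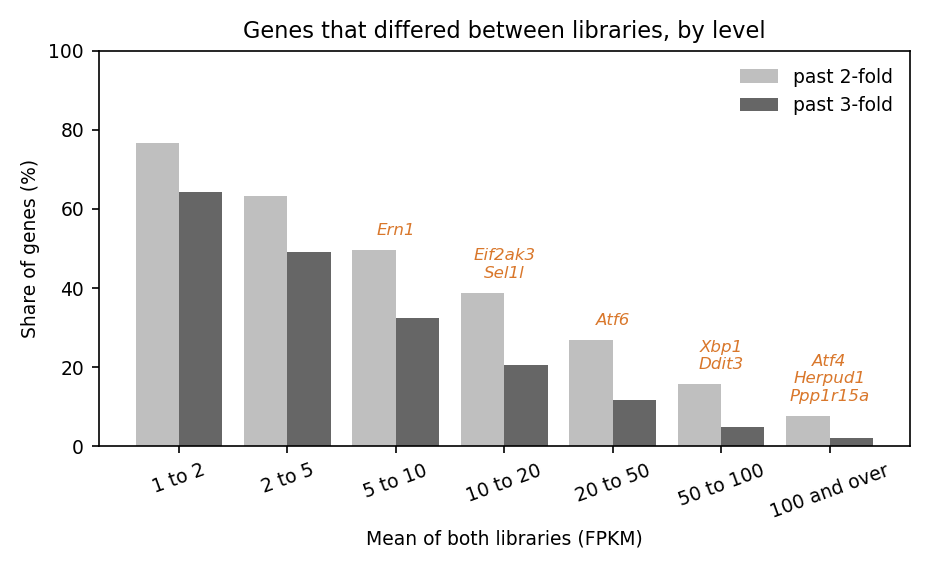
Share of all genes compared (%) that differed by at least 2-fold (light bars) or 3-fold (dark bars) between the WT and the KO library, by the mean FPKM of both libraries. The regulators are named above the range they lie in: the share past 3-fold was 32.4% in that of Ern1 and 2.14% in that of Atf4, Herpud1 and Ppp1r15a, and no regulator passed 2-fold.

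The sensors were the 3 least abundant of the detected regulators in WT, and in KO only Sel1l, at 13.7 FPKM, lay among them. Ern1 (ENSMUSG00000020715, chromosome 11) was at 4.35 FPKM in WT against 7.48 in KO, a ratio of 1.72 and a change of 0.67. It was the lowest of the 9 in both libraries, above 29.0% of the genes listed above 0 in WT and above 43.7% of those in KO. Its value rested on an estimated 17 to 177 fragments in WT and 37 to 388 in KO, depending on which of its coding transcripts, from 654 to 6946 nt, the reads came from. These estimates cover counting error only, since PCR copies are not independent molecules.

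Eif2ak3 (ENSMUSG00000031668, chromosome 6) was at 11.8 FPKM in WT against 9.78 in KO, a change of -0.25. In GRCm38, 8.05% of the exon bases of Eif2ak3 also lie in Gm43292 on the opposite strand. Atf6 (ENSMUSG00000026663, chromosome 1) was at 24.0 FPKM in WT against 21.3 in KO, a change of -0.16, with 1017 and 1151 fragments estimated behind the values. Both of these were lower in KO by less than the median size of change at their levels, 0.76 at 10 to 20 FPKM and 0.58 at 20 to 50. Summed over the 3 sensors, FPKM was 40.1 in WT and 38.5 in KO, so the higher Ern1 value in KO stood beside lower Eif2ak3 and Atf6 values. The change of Ern1 was also under the median size at 5 to 10 FPKM, 0.99.

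Of the regulators that are transcription factors, Atf4, Ddit3 and Xbp1 were higher in KO, unlike Atf6, described with the sensors. Atf4 (ENSMUSG00000042406, chromosome 15), translated when eIF2 is phosphorylated and a driver of amino acid and stress genes, was at 364 FPKM in WT against 590.0 in KO. Its ratio was 1.62 and its change 0.70, beside a ratio of 1.72 and a change of 0.67 for Ern1, so which of the pair differed more depends on the pseudocount. At 100 FPKM or more, 10% of genes had a change above 0.59, and Atf4 was the only regulator to lie outside the middle 80% of the genes at its level. Its estimated fragments numbered 1405 to 3678 in WT and 2903 to 7599 in KO.

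Ddit3 (ENSMUSG00000025408, chromosome 10), which encodes CHOP, a factor downstream of ATF4 linked to cell death under lasting ER stress, was at 39.7 FPKM in WT against 62.6 in KO. Its ratio was 1.58 and its change 0.64, inside the middle 80% of genes at 50 to 100 FPKM, which ran from -0.94 to 0.78. In GRCm38, 6.13% of its exon bases are shared on the same strand with another gene model of the same name, which is not in the table, and 0.759% with Gm4189 on the opposite strand. Of its exon bases 3.97% lie in Mars, also on the opposite strand, and the protocol names no step that marks strand. Mars itself was at 3.20 FPKM in WT against 5.43 in KO, far below Ddit3.

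Xbp1 (ENSMUSG00000020484, chromosome 11), whose product raises the capacity of the ER to fold, export and degrade protein, was at 56.2 FPKM in WT against 69.1 in KO. The ratio was 1.23 and the change 0.29, below the median size of 0.40 for genes at 50 to 100 FPKM. Its level exceeded that of 86.6% of the listed genes in WT and 89.6% in KO. Its change was thus smaller than those of Atf4 and Ddit3 and larger in size than that of Atf6.

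The regulators that feed back on the response differed widely in level. Ppp1r15a (ENSMUSG00000040435, chromosome 7) encodes GADD34, which brings protein phosphatase 1 to eIF2 and so restores translation. It was at 433 FPKM in WT against 569.6 in KO, a ratio of 1.31 and a change of 0.39. Together with Atf4 it made up 75.7% of the summed FPKM of the regulators in WT and 79.9% in KO. Trib3 (ENSMUSG00000032715, chromosome 2), a pseudokinase induced by ATF4 and CHOP that restrains ATF4, was listed at 0 in both libraries. An FPKM of 0 in this table need not mean absence, since 953 genes were listed at 0 in WT with an FPKM of at least 1 in KO, and 809 the other way round.

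The 2 regulators of ER-associated degradation (ERAD) differed between the libraries in opposite directions. Herpud1 (ENSMUSG00000031770, chromosome 8), an ER membrane protein that helps to assemble the degradation complex, was at 94.1 FPKM in WT against 108 in KO, a change of 0.19. Sel1l (ENSMUSG00000020964, chromosome 12), the partner that holds the ubiquitin ligase HRD1 in that complex, was at 25.7 FPKM in WT against 13.7 in KO. Sel1l was thus 1.88 times as high in WT as in KO, with a change of -0.86 that was the largest in size of the 9. The estimated fragments numbered 833 to 947 in WT and 566 to 643 in KO. At its level, a mean of 10 to 20 FPKM, 38.9% of all genes differed by 2-fold or more and the median size of change was 0.76.

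**Figure D2:**
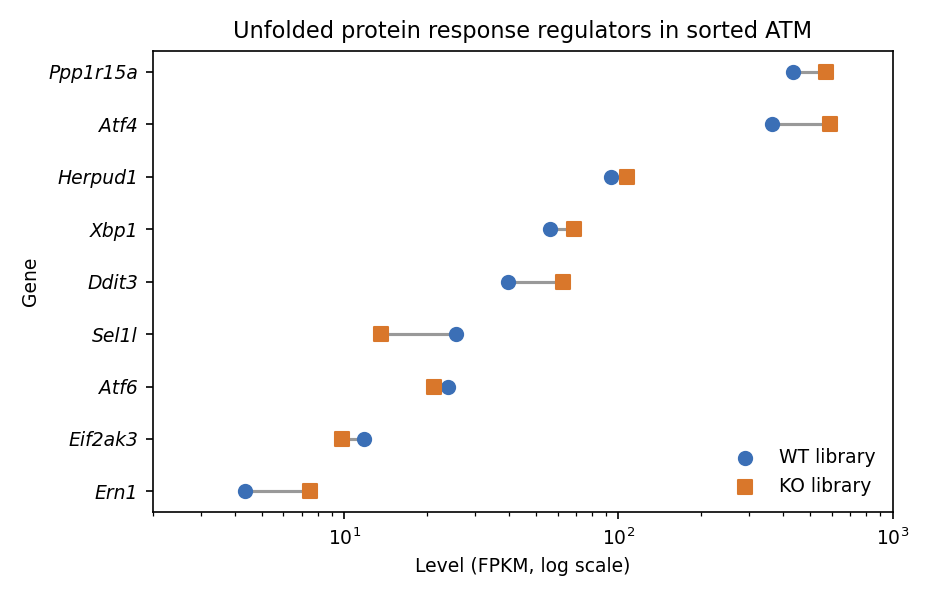
Level of each detected UPR regulator (FPKM, log axis) in the WT library (circles) and the KO library (squares), joined by a line. Ppp1r15a and Atf4 lie at 364 FPKM or more in both libraries and Ern1 at 7.48 or less, and Sel1l shows the widest gap with the WT value higher.

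The order of the regulators by level, which FPKM allows because it is per length, was nearly shared by the libraries. In WT it ran from Ppp1r15a through Atf4, Herpud1, Xbp1, Ddit3, Sel1l, Atf6 and Eif2ak3 to Ern1. In KO, Atf4 stood above Ppp1r15a and Atf6 above Sel1l, and the other positions were as in WT. The highest was 99.7 times the lowest in WT and 78.9 times in KO, so the spread among the regulators was far wider than the difference of any regulator between genotypes. With 1 library each, whether neighbours in this order differ beyond replicate spread was not tested.

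**Figure D3:**
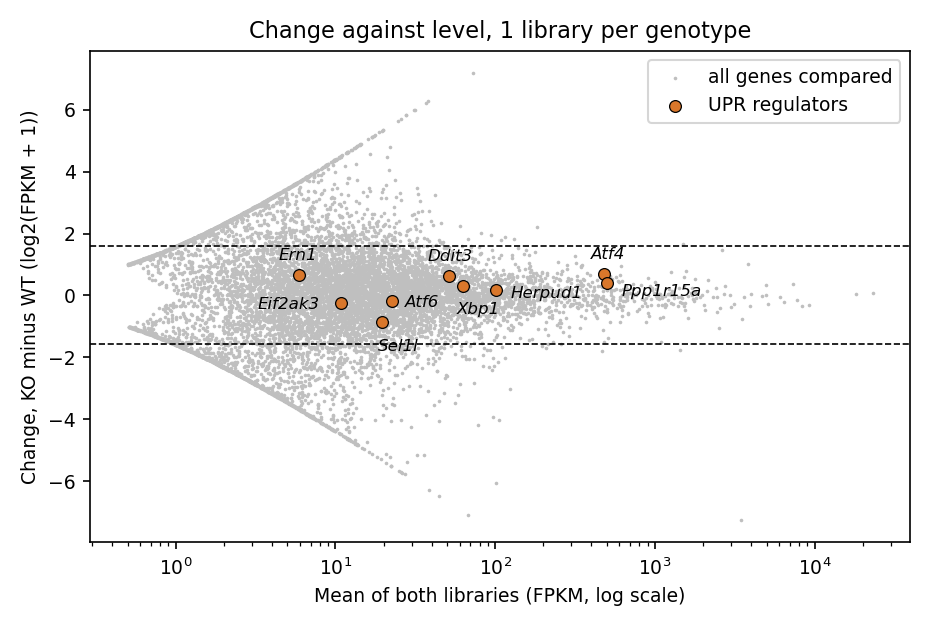
Change (KO minus WT, log2(FPKM + 1)) against the mean FPKM of both libraries (log axis) for the 10297 genes compared (grey) and the 9 detected regulators (orange), with dashed lines at 3-fold. All 9 lie between the lines, from -0.86 for Sel1l to 0.70 for Atf4, and the grey cloud narrows as the level rises.

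Promoters of the regulators were then searched for sequence elements of the response. RefSeq windows of 250 bases before to 50 bases after the start (GRCm38.p6) matched 9 of the 10 genes, all but Atf6. Both strands were searched for the ER stress element ERSE (CCAAT, any 9 bases, CCACG), ERSE-II (ATTGG, any base, CCACG), the UPR element UPRE (TGACG followed directly by TGG), the C/EBP-ATF composite element bound by ATF4 and CHOP (TGATG, any base, AA) and the core of the HIF-binding element (ACGTG or GCGTG). ERSE-II was found in 1 of the 9 windows, that of Herpud1, and in 0.0365% of all 32851 windows. The composite element was found in 2 of the 9, those of Herpud1 and Trib3, and in 3.97% of all windows. ERSE and UPRE were found in 0 of the 9, and in 0.119% and 0.676% of all. The HIF core was found in 7 of the 9 and in 43.8% of all windows, with 4 matches in Ppp1r15a and 3 each in Atf4 and Ddit3.

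The stretches with the composite element or ERSE-II are shown with the matches in capitals, since these windows carry the elements of the response beside very different levels. The Herpud1 stretch lies at chr8:94386297-94386407 on the plus strand, from 132 to 22 bases before the start. Its first match is the composite element on the reverse strand, and its second is ERSE-II, which overlaps a HIF core match on the reverse strand. The Trib3 stretch lies at chr2:152344029-152344056 on the minus strand, and its match, on the reverse strand, lies just after the start.
Herpud1: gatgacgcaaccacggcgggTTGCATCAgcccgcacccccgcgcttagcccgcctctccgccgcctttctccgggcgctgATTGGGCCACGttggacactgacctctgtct
Trib3: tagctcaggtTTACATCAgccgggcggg
Herpud1, with both elements, was at 94.1 FPKM in WT against 108 in KO, whereas Trib3 was listed at 0 in both libraries. A match is a description of letters, and binding was not measured.

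The genes that these regulators control were compared next. The share of all genes given beside each list covers all levels, and it was lower among genes at higher levels. Among 24 ER chaperones and foldases, all past the filter, 17 were higher and 7 lower in KO, with a median change of 0.46, where 51.3% of all genes were higher and their median was 0.03. The highest by the mean of both libraries were Calr, a lectin chaperone, at 627 FPKM in WT against 584 in KO, Hspa5, the chaperone BiP that binds the sensors, at 372 and 455 FPKM, and P4hb, a disulfide isomerase, at 143 and 213 FPKM. Past 3-fold, 2 of the 24 were higher in KO and 1 was lower, beside 27.3% of all genes in either direction. Most of the 24 lay at a mean of 20 FPKM or more. There the share of all genes was 11.7% at 20 to 50 FPKM, 4.95% at 50 to 100 and 2.14% at 100 or more. Dnajc10, a reductase of the ER, was at 0.0405 FPKM in WT against 7.33 in KO, and Pdia5 had no value above 0 in WT and was at 5.68 FPKM in KO. These 2 were the genes past 3-fold higher. With Ero1a, at 0 and 1.39 FPKM, they passed the filter through KO alone and so could only count as higher there. Sdf2l1, a BiP cofactor, was at 34.7 FPKM in WT against 10.5 in KO. The median was 0.29 over the chaperones that reached 1 FPKM in each library, so its size depended on genes that were low in WT.

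Of 31 genes known to be induced by ATF4 and CHOP, 30 were found and 23 passed the filter, with 17 higher and 6 lower in KO and a median change of 0.48. The highest by the mean of both libraries were Gdf15, a stress cytokine, at 294 FPKM in WT against 371 in KO, Atf3 at 262 and 266 FPKM, and Slc3a2, a subunit of amino acid transporters, at 149 and 247 FPKM. Past 3-fold on the log2(FPKM + 1) scale, 3 of the 23 were higher and 0 were lower in KO, beside 13.6% and 13.7% of all genes. The 0 depends on the pseudocount, since on the FPKM ratio Ddit4, at 19.1 FPKM in WT against 5.98 in KO, and Shmt2, at 20.8 and 6.56 FPKM, were also more than 3-fold lower. On that ratio Sars, at 5.37 and 16.3 FPKM, was more than 3-fold higher as well. Eprs, a transfer RNA synthetase, was at 1.14 FPKM in WT against 7.98 in KO, while Sesn2 and Cars, listed at 0 in WT, were at 3.92 and 10.3 FPKM in KO. Sesn2, Cars, Mthfd2 and Ero1a passed the filter through KO alone and so could only count as higher there. Of the 3 past 3-fold higher, Sesn2 and Cars were of this kind. Asns, Chac1, Phgdh and Stc2 were listed at 0 in both libraries, as Trib3 was. The median was 0.30 over those that reached 1 FPKM in each library and 0.23 over all 30 without the filter.

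ERAD genes other than Herpud1 and Sel1l had a median change of -0.09 over 20 of 21, with 8 higher and 12 lower in KO. The median ranged from -0.11 to -0.05 with the scaling of the libraries and was -0.05 over all 21 without the filter. The highest by that mean were Aup1 at 95.0 FPKM in WT against 78.7 in KO, Os9, a lectin that delivers glycoproteins to the SEL1L complex, at 85.3 and 44.0 FPKM, and Vcp, the ATPase that extracts substrates, at 63.3 and 40.02 FPKM. Past 3-fold, 1 of the 20 was higher and 1 lower in KO, beside 13.6% and 13.7% of all genes. Erlec1, a lectin of the same complex, was the higher, at 3.22 FPKM in WT against 12.3 in KO. Selenos, which anchors VCP at the ER, was the lower, at 42.8 and 10.1 FPKM. On the FPKM ratio Derl2, at 2.01 and 0.511 FPKM, was also more than 3-fold lower. Derl2 passed the filter through WT alone and so could only count as lower in KO.

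Genes of ER translocation and export had a median change of -0.00 over 25 of 26, which ranged from -0.03 to 0.04 with the scaling of the libraries, with 12 higher and 13 lower in KO. Past 3-fold, 4 of the 25 were lower in KO and 1 was higher, beside 13.7% and 13.6% of all genes. Most of the 25 lay at a mean of 10 FPKM or more, where smaller shares of all genes passed. In either direction these were 20.6% at 10 to 20 FPKM, 11.7% at 20 to 50, 4.95% at 50 to 100 and 2.14% at 100 or more. Whether the count of lower genes exceeds the share at like levels was not tested. Sec61b, a small subunit of the protein-conducting channel, was at 221 FPKM in WT against 26.1 in KO, and Sec61g, another, at 279 and 132 FPKM. Srp9 was at 45.3 FPKM in WT against 7.06 in KO, Sec11a at 23.7 and 6.04 FPKM, and Srp19 at 51.5 FPKM in WT and listed at 0 in KO. Srp19 passed the filter through WT alone and so could only count as lower in KO. Ssr4 was at 129 FPKM in WT against 166 in KO, and Sec23b, a coat protein of export vesicles, at 5.69 and 30.5 FPKM. The median annotated transcript length was 430 nt for Sec61b, 744 nt for Srp19, 998 nt for Sec11a and 1095 nt for Srp9, the 4 past 3-fold lower, and 694 nt for Sec23b, the 1 higher. Among all genes at a mean of at least 20 FPKM, those shorter than 1000 nt were past 3-fold more often in both directions, 8.66% lower and 5.31% higher in KO, against 1.45% and 0.867% of those of 4000 nt or more. The part of length in these values was not tested.

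Around PERK, 15 of 16 genes for eIF2, its other kinases and phosphatase partners had a median change of -0.03, from -0.05 to 0.01 with the scaling, with 7 higher and 8 lower in KO. Ppp1r15b, the constitutive counterpart of Ppp1r15a, was at 29.4 FPKM in WT against 59.9 in KO. The phosphatase subunits Ppp1ca and Ppp1cc were at 86.9 and 85.4 FPKM in WT and at 122 and 72.3 FPKM in KO. Past 3-fold, 0 of the 15 were higher in KO and 3 were lower, beside 13.6% and 13.7% of all genes. The 3 encode subunits of eIF2B, the exchange factor that phosphorylated eIF2 blocks, of which 5 were on the list. Eif2b2 was at 31.4 FPKM in WT against 6.84 in KO, Eif2b5 at 6.90 and 1.01 FPKM, and Eif2b4 at 15.7 FPKM in WT and listed at 0 in KO. Eif2b4 passed the filter through WT alone and so could only count as lower in KO. Of the other subunits, Eif2b1 was at 3.42 FPKM in WT against 5.18 in KO, and Eif2b3 was listed at 0 in both.

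Around IRE1, 9 of 10 partners and substrates had a median change of 0.18, with 5 higher and 4 lower in KO. The median was 0.08 over all 10 without the filter on low values and 0.26 at a mean of at least 5 FPKM. Tmbim6, an inhibitor of IRE1, was at 236 FPKM in WT against 324 in KO. Bloc1s1, a message that IRE1 is known to degrade, was at 84.9 FPKM in WT against 82.3 in KO, and Ergic3, another, at 60.9 and 108 FPKM. Zbtb8os, a cofactor of the ligase that rejoins Xbp1, was the 1 gene of the 9 past 3-fold, beside 27.3% of all genes, at 16.4 FPKM in WT against 1.09 in KO.

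Around ATF6, 9 of 11 processing enzymes and related factors had a median change of -0.28, with 4 higher and 5 lower in KO, and the median was 0.00 over all 11 without the filter on low values. Past 3-fold, 2 of the 9 were higher and 2 lower, beside 13.6% and 13.7% of all genes. Atf6b, its close relative, was past 3-fold higher in KO, at 7.14 FPKM in WT against 25.5 in KO, as was Nfyb at 0.332 and 6.11 FPKM. Creb3, another factor released from the ER membrane, was past 3-fold lower, at 32.6 FPKM in WT against 5.61 in KO, as was Mbtps2, a protease that frees ATF6, at 5.30 and 0.734 FPKM. Nfyb passed the filter through KO alone and Mbtps2 through WT alone, so the filter fixed the direction of each. Nfya was at 39.4 FPKM in WT against 28.3 in KO. Of 10 cell death genes placed downstream, 9 passed the filter, 4 were higher and 5 lower in KO, and 0 were past 3-fold, beside 27.3% of all genes. Their median was -0.47, and -0.23 over all 10 without the filter. On the FPKM ratio Bcl2, at 1.85 FPKM in WT against 0.0178 in KO, was more than 3-fold lower. Casp12 had a KO value of 1.09 FPKM and a change of 1.06, but no ratio, since its WT value was 0. Each of these genes reached 1 FPKM in only 1 library, Bcl2 in WT and Casp12 in KO, so the filter fixed its direction. Over the list's genes that reached 1 FPKM in each library the median was also -0.47. The highest by the mean of both libraries were Casp4 at 117 FPKM in WT against 182 in KO, Bax at 26.5 and 13.5 FPKM and Pmaip1 at 24.0 and 16.6 FPKM.

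**Figure D4:**
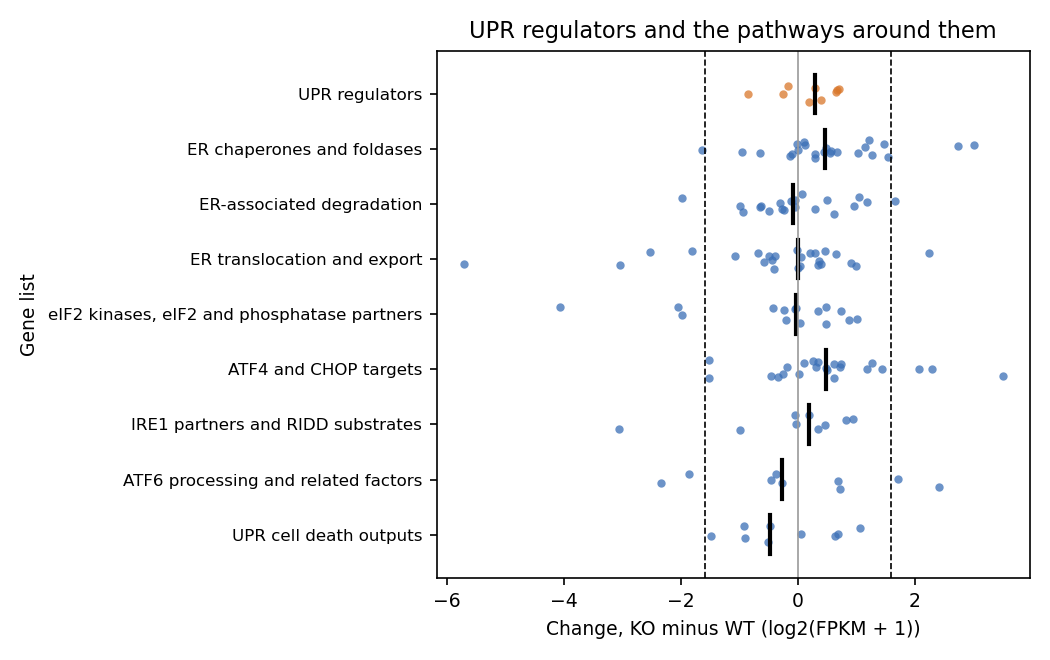
Change (KO minus WT, log2(FPKM + 1)) of each gene past the filter in the UPR regulators (orange) and in the lists around them (blue), with black bars at the list medians and dashed lines at 3-fold. The regulators keep within -0.86 to 0.70, and chaperones and ATF4 and CHOP targets have medians of 0.46 and 0.48.

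Markers of other cells were examined because secretory cells such as plasma cells hold much Xbp1 message. In bulk RNA, fewer cells of a type and less RNA per cell cannot be told apart. Macrophage markers, 10 of 11 found, summed to 15409 FPKM in WT and 14821 in KO. Their count past 3-fold was 0, beside 27.3% of all genes and 2.14% of those at a mean of 100 FPKM or more. All those found but Fcgr1 and Mertk lay at that level. Adgre1, the gene of the sorted F4/80, was at 299 FPKM in WT against 239 in KO. Of 9 plasma cell markers 7 were found and 5 passed the filter, 3 higher and 2 lower in KO, and the 7 summed to 30.4 and 43.7 FPKM. Mzb1 and Derl3 were listed at 0 in both libraries and Jchain was at 1.07 FPKM in WT and at 0 in KO. Sdc1 was at 9.14 FPKM in WT against 1.84 in KO, while Tnfrsf17, at 0 in WT, was at 12.3 FPKM in KO. Jchain passed the filter through WT alone and Tnfrsf17 through KO alone, so the filter fixed the direction of each. Irf4 and Prdm1, which other immune cells also express, were at 13.4 and 6.80 FPKM in WT and at 15.6 and 13.96 FPKM in KO. Of 10 neutrophil markers 9 were found, with sums of 158 FPKM in WT and 521 in KO. Of the 6 that passed the filter, Ngp and Retnlg did so through KO alone, at 2.61 and 2.46 FPKM, and so could only be higher there. S100a8 was at 73.3 FPKM in WT against 182 in KO and S100a9 at 63.4 and 301 FPKM, Csf3r at 15.5 and 24.1 FPKM and Cxcr2 at 5.83 and 7.96 FPKM, whereas Camp, Ltf and Mmp8 were listed at 0 in both. Fibroblast markers summed to 46.2 and 84.5 FPKM, endothelial to 18.7 and 16.1, B cell to 5.56 and 6.89 and T cell to 5.35 and 2.07. Mesothelial markers summed to 0 and 7.84 FPKM, from Upk3b alone of 6. Adipocyte markers summed to 191 and 194 FPKM, mostly from Fabp4, Lipe and Pnpla2, with Adipoq, Plin1 and Retn listed at 0 in both and Cfd and Lep at 0 in WT and at 7.11 and 1.60 FPKM in KO. Dendritic cell markers summed to 126 and 140 FPKM, mostly from Cd209a at 122 and 131 FPKM, while Xcr1 was at 1.65 and 0.0588 FPKM and Zbtb46 at 0 and 9.45 FPKM. Among these other markers past the filter, 2 of 6 neutrophil and 2 of 6 fibroblast genes were past 3-fold higher in KO. The same held for 1 of 5 plasma cell, 1 of 5 adipocyte and 1 of 4 dendritic cell genes. It also held for 1 of 3 B cell genes and for Upk3b. Past 3-fold lower were 1 of 6 fibroblast, 1 of 5 plasma cell and 1 of 5 endothelial genes. All of these but S100a9 and Sdc1 passed the filter through 1 library alone. The cells were sorted on F4/80 and CD11b, and the purity of the sort was not tested here. Whether neutrophils or other cells contributed to the higher Atf4, Ddit3 and Ppp1r15a values was not tested.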

How the data were processed

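Poly(A) RNA of sorted ATM was sequenced as 1 library per genotype. According to the submitters' processing notes the authors used CASAVA 1.8.2, TopHat2 2.0.9, Cufflinks 2.2.1 and the mm9 build. The deposited values are FPKM per gene, already divided by transcript length and library size, so no count model was used. The annotation and filters are not given in the sources used here. The mutant's column was read as KO, which is the only library other than WT.

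Of 20749 rows, 401 full repeats were dropped and 18 further rows of an identifier already present were summed. Symbols came from GENCODE M21 and matched 98.5% of the 20330 identifiers. Differences were taken with a pseudocount of 1 FPKM, which understates the change of low genes. A gene that reached 1 FPKM in 1 library alone could only be higher in that library. Depth was estimated from the FPKM x kb of genes with 1 annotated transcript, where 1 fragment gave 0.171 in WT and 0.134 in KO. Lengths are GRCm38, not mm9. The Xbp1 letters were located by CNGCAG, any 20 bases and CNGCAG, which also matched a stretch in exon 1.

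The regulators and lists were chosen with earlier results of these data known. Besides the regulators, Hif1a and Apoe, the text names the 3 highest genes of each list and up to 2 largest rises and 2 largest falls past 3-fold among genes that reached 1 FPKM in each library. Other genes, including the remaining ones past 3-fold and the markers, were named after their values were seen. Scripts used Python 3.11.15, pandas 2.3.3 and numpy 2.4.6 and were tested on simulated data.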

Additional observations from a re-analysis of the deposited data

How the results depend on the processing

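No paired analysis was possible because neither genotype was sequenced more than once. The count of regulators past 3-fold was 0 under all 11 alternatives (pseudocount, filter, scaling, repeated identifiers and threshold), and their median change lay between 0.24 and 0.34. The 9 detected regulators kept their direction under the 3 scalings, the only alternatives that could turn it. Over the pseudocounts and scalings Atf4 lay between 0.67 and 0.74 and Sel1l between -0.91 and -0.82. Genes past 3-fold over the whole table numbered 1402 higher and 1413 lower in KO, and 429 and 447 among genes reaching 1 FPKM in each library, 598 and 646 among those averaging 5 FPKM or more, where fewer genes were compared, and 2380 and 2314 at 2-fold. The medians of the translocation and eIF2 lists lay near 0 and changed sign with scaling. The median of all genes was 0.07 with libraries scaled to the same sum. At a pseudocount of 0.1 the change of Ern1 was 0.77 and that of Atf4 0.70. Without the filter the medians were 0.00 for the ATF6, -0.23 for the cell death, 0.23 for the ATF4 and CHOP and 0.08 for the IRE1 list. Estimated fragments were few for Ern1, depending on its transcript, and Trib3 could not be compared.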
